A study of Mus musculus with 14 samples.

Results

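Focal adhesion kinase (FAK), encoded by Ptk2, is a cytoplasmic tyrosine kinase that integrins and growth factor receptors recruit to sites where cells hold the matrix. It autophosphorylates, binds Src-family kinases and passes signals on to adhesion, survival and growth pathways, and it also acts as a scaffold in ways that do not need its catalytic activity. A point mutant that keeps the protein but blocks the kinase therefore separates these roles. Here the mRNA of KMF FAK knockout cells that re-expressed wild-type FAK (FAK-WT) was compared with that of the same knockout cells re-expressing the kinase-inactive mutant FAK-R454.

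The 2 lines gave 5 of the 14 samples of the series, 3 of FAK-WT and 2 of FAK-R454, and every gene was compared in both directions. KMF is a mouse ovarian tumor line on the C57Bl6 background, derived from ID8 cells by passage in mice. Both lines came from KT13, a single KMF clone (FAK KO) in which exon sequence of Ptk2 had been targeted with CRISPR/Cas9, and received murine GFP-FAK or GFP-FAK R454 from a lentivirus with a CMV promoter, followed by puromycin selection and enrichment by flow cytometry. So every cell in this comparison carried the edited Ptk2 alleles and a GFP-tagged transgene, and each genotype was 1 line. The other 9 samples, used only where stated, were 3 each of parental KMF, FAK KO, and FAK KO expressing β-catenin ΔGSK, a stabilised β-catenin. All were grown without anchorage as tumorspheres for 5 days before poly(A) RNA was sequenced. Nothing in the labels says that the samples of a line came from separately made lines, so p-values measure the spread between samples of these lines only.

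Levels are FPKM, fragments scaled to gene length and library size, as deposited. Between 26844067 and 31674402 fragments were counted on genes in the 5 libraries, mitochondrial genes took 0.979 to 1.11% of them, and the 2 FAK-R454 libraries correlated at 0.996 across tested genes (Pearson's r, across genes, which are not independent replicates). FAK-WT 3 stood a little apart: it correlated at 0.987 and 0.990 with the other FAK-WT libraries, which correlated at 0.996 with each other. Of ovarian surface and mesothelial markers, Krt8, Krt18, Krt19, Wt1 and Msln were expressed in all 5 libraries, while Muc16, Lhx9, Cdh1, Epcam and Pax8 were under 1 FPKM in each. Of markers of other cell types, Ptprc and Cd3e of leukocytes and Kdr of endothelium were listed at 0 in all 5. The summed level of 5 leukocyte markers was 6.68, 6.98 and 12.3 FPKM in FAK-WT and 4.26 and 4.34 FPKM in FAK-R454, nearly all of it Cd68, a lysosomal protein gene that many cell types express. The sum of 4 endothelial markers was 1.15, 1.19 and 1.31 FPKM in FAK-WT and 0.991 and 0.897 FPKM in FAK-R454, nearly all of it Pecam1, which had 1.07, 1.16 and 1.27 FPKM against 0.931 and 0.771 FPKM (log2 fold change 0.41, limma adjusted p = 0.186). Both sums were thus higher in every FAK-WT sample, and their part in the results was not tested. The sum of 4 fibroblast markers, mostly Dcn, overlapped between the lines (116, 120.3 and 134 FPKM against 123 and 111 FPKM).

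Ptk2 mRNA was present in both lines and was higher with the mutant. The FAK-WT samples had 42.3, 42.5 and 45.4 FPKM of Ptk2 (ENSMUSG00000022607, chromosome 15) and the FAK-R454 samples 59.2 and 65.5 FPKM. All FAK-R454 values lay above all FAK-WT values, and the log2 fold change of FAK-WT over FAK-R454 was -0.52 (standard error, SE, 0.06, limma adjusted p = 0.0121). These fragments do not separate the transgene from the edited gene, nor the wild-type codon from the mutant one. The amount of FAK transcript, the line and the kinase mutation cannot be told apart by this design.

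Of 11782 genes tested, 82 were called higher (0.696%) and 88 lower (0.747%) in FAK-WT relative to FAK-R454, 170 in all (1.44%). A call needed an adjusted p under 0.05, a log2 fold change of at least 1 in size and a mean above 1 FPKM in the higher line. The median log2 fold change was 1.25 among genes called higher and -1.48 among those called lower, against -0.05 over all genes tested. At any fold, 398 genes (3.38%) were higher and 523 (4.44%) lower with an adjusted p under 0.05. In each of the 170 called genes the FAK-WT and FAK-R454 samples did not overlap, which held for 48.5% of all genes tested (16.7% with FAK-WT higher and 31.8% with FAK-WT lower). An exact permutation test of 3 samples against 2 has 10 arrangements and cannot go below p = 0.1 for any gene, so the tests rest on the spread that limma pools across genes.

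With 2 FAK-R454 samples the number of calls hung on each of them. Without FAK-R454 1 there were 7 calls and without FAK-R454 2 there were 8, and 7 genes were called in both: Wnt4, Col6a1, Smagp and 2010300C02Rik higher in FAK-WT, and Try5, Penk and Serpina6 lower. In these fits the lone FAK-R454 sample is taken to vary like FAK-WT. Without FAK-WT 2 there were 30 higher and 51 lower calls.

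Among the genes named below, log2(FPKM + 1) in place of log2(FPKM + 0.1) removed the calls of Rnf144b, Amigo2, Fos, Krt6a, Il18r1, Ecscr, Gfra1, Fmnl2, Fgfr2, Oas2, Emilin2, Axin2, Flt1, Fst, Cmpk2 and Ptger3 among the rises, and of Col22a1, Dkk1, Fgf18, Acvrl1, Bnc1 and Lrrn4 among the falls. With no filter on low values, Krt6a, Ecscr, Oas2, Enpp2, Ptger3, Ngfr, Acvrl1, Bnc1 and Lrrn4 were not called. Genes that passed the test at a lower fold, without a call, were less firmly placed. None of those named below passed without FAK-R454 1 or without FAK-R454 2. With no filter, Notum, Klf5, Mmp24, Krt18, Krt19, Ccnd1, Gbp2, Itgb3, Asap1, Gata6, Ptk2b and Arhgap26 did not pass. Neither without FAK-WT 1 nor without FAK-WT 2 did Notum, Mmp24, Krt8, Krt18, Krt19, Krt15, Ccnd1, Ptgs2, Plaur, Gbp2, Msln, Myc, Cdk6, Itgb4, Itgb3, Asap1, Nr5a1, Spry2, Gata6, Nedd9, Fyn, Ptk2b and Arhgap26 pass. Without FAK-WT 2, Ptk2, Klf5, Oasl1, Fosl1, Tead4, Cd44, Abcg2, Scd2 and Itga7 did not pass either. After each chromosome's median fold change was set to 0, Amigo2, Emilin2, Flt1, Lrrn4, Slurp1, Aqp5 and Cela1 were not called. In that fit Myc, Msln, Ptk2b, Nedd9, Arhgap26, Asap1, Spry2, Gata6 and Nr5a1 did not pass.

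**Figure D1:**
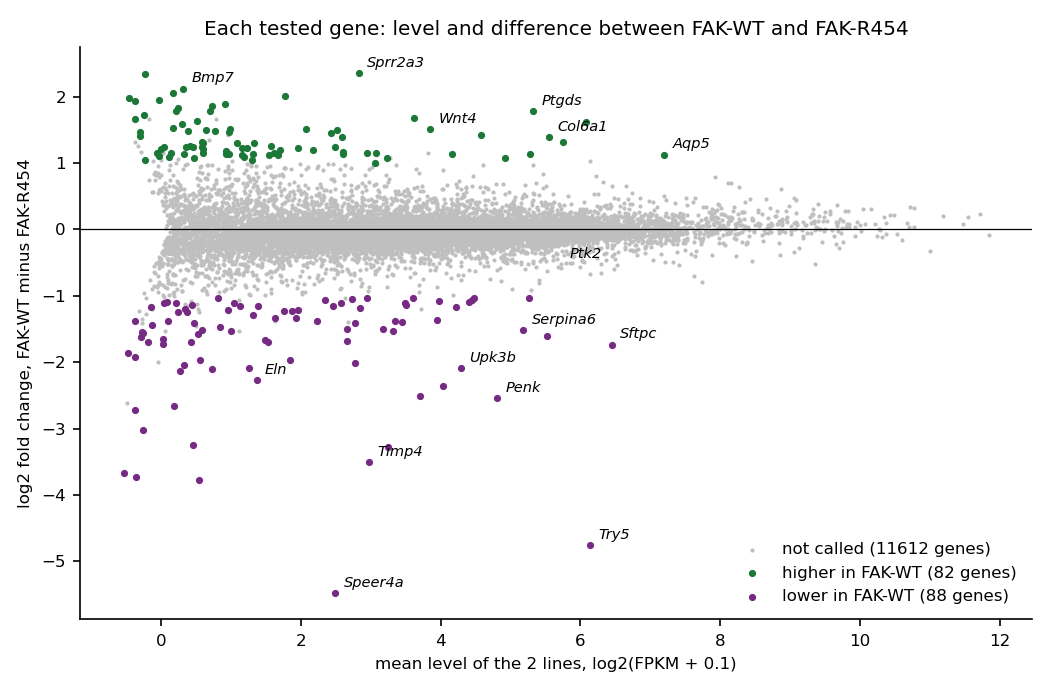
Each point is 1 of 11782 tested genes, with the mean level of both lines (log2 of FPKM plus 0.1) on the x axis and the log2 fold change of FAK-WT over FAK-R454 on the y axis. The 82 genes called higher in FAK-WT are green and the 88 called lower purple, and the falls of Try5 and Speer4a lie farthest from 0.

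The 15 largest rises in FAK-WT were led by Sprr2a3, a small proline-rich protein of the cornified envelope. It had 12.7, 12.98 and 9.65 FPKM in FAK-WT and 2.06 and 2.36 FPKM in FAK-R454, a log2 fold change of 2.36 (SE 0.15, limma adjusted p = 0.0024). Krt6a, a keratin of stressed and wound-edge epithelium, followed with 1.34, 1.57 and 1.02 FPKM against 0.0798 and 0.322 FPKM. No sample of one line reached into the range of the other for either gene, but Krt6a was near the lowest level that was tested. Bmp7, a bone morphogenetic protein ligand, had 1.89, 2.11 and 1.77 FPKM in FAK-WT and 0.343 and 0.387 FPKM in FAK-R454 (log2 fold change 2.12, SE 0.16, limma adjusted p = 0.00357). Barx2, a homeobox factor, and Ehf, an epithelial ETS factor, rose by 2.05 and 1.89 on the log2 scale. Between them in size came 2010300C02Rik (2.01 on the same scale), the interleukin-18 receptor chain Il18r1 (1.98), the endothelial surface protein gene Ecscr (1.94) and the GDNF co-receptor Gfra1 (1.93). The carboxypeptidase gene Cpn1 (1.85), the formin Fmnl2 (1.83), Ptgds (1.79), the receptor genes Trem2 and Fgfr2 (1.78 each) and the oligoadenylate synthetase Oas2 (1.73) completed the 15. Of these, Sprr2a3, 2010300C02Rik and Ptgds had a mean above 5 FPKM in FAK-WT, and the rest were low-abundance transcripts. Without FAK-WT 2, Krt6a, Ecscr, Gfra1, Ehf, Cpn1, Trem2 and Fgfr2 were not called, and without FAK-WT 1, Krt6a, Ecscr and Oas2 were not.

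The larger falls were steeper. Try5 and Try4 are neighbouring genes of the trypsin cluster on chromosome 6. Try5 had 4.73, 4.65 and 5.45 FPKM in FAK-WT and 138 and 132 FPKM in FAK-R454, a log2 fold change of -4.75 (SE 0.08, limma adjusted p = 1.5e-05). Try4 had 2.34, 1.91 and 1.03 FPKM against 16.9 and 17.3 FPKM (log2 fold change -3.28). Reads can be split between these similar copies, so the share of each is uncertain. Timp4, an inhibitor of matrix metalloproteinases, had 1.56, 1.29 and 0.764 FPKM in FAK-WT and 12.97 and 15.5 FPKM in FAK-R454 (log2 fold change -3.51, SE 0.28, limma adjusted p = 0.00357). Both FAK-R454 samples lay far above all FAK-WT samples. Gm17482, which spans Timp4 on the opposite strand and shares 6234 bases with it, was listed at 0 in all FAK-WT samples and at 0.75 and 1.97 FPKM in FAK-R454, and reads of this pair cannot be told apart without strand. Gm17482 was not called without FAK-WT 2.

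Penk, which encodes proenkephalin, the precursor of enkephalin peptides, had 7.89, 8.97 and 7.60 FPKM in FAK-WT and 48.7 and 46.7 FPKM in FAK-R454 (log2 fold change -2.54, SE 0.08, limma adjusted p = 0.000357). Cck, the precursor of another secreted peptide, had 3.67, 2.72 and 5.30 FPKM against 23.7 and 20.1 FPKM. So 2 peptide precursors were severalfold lower in every FAK-WT sample. Eln, which encodes elastin, had 0.857, 0.923 and 0.604 FPKM in FAK-WT and 4.38 and 3.95 FPKM in FAK-R454 (log2 fold change -2.27). Low transcripts among the 15 included the myosin-binding protein Mybpc3 and the myosin chaperone Unc45b, with log2 fold changes of -2.66 and -2.72. The remaining members of the 15 were Speer4a (-5.48), the tetraspanin Tspan11 (-3.78), the pepsinogen gene Pgc (-3.25), Xlr4a (-3.03), the Arp3-related Actr3b (-2.36) and Gm21655, the last listed at 0 in every FAK-WT sample and at 1.05 and 1.31 FPKM in FAK-R454. Speer4a, Gm21655 and Xlr4a belong to families of similar copies, so their values are uncertain in the same way. Among called genes chosen after their values were seen, Serpina6, a corticosteroid-binding globulin, had 19.6, 18.4 and 18.03 FPKM in FAK-WT and 54.7 and 53.0 FPKM in FAK-R454 (log2 fold change -1.52, SE 0.06, limma adjusted p = 0.000407).

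**Figure D2:**
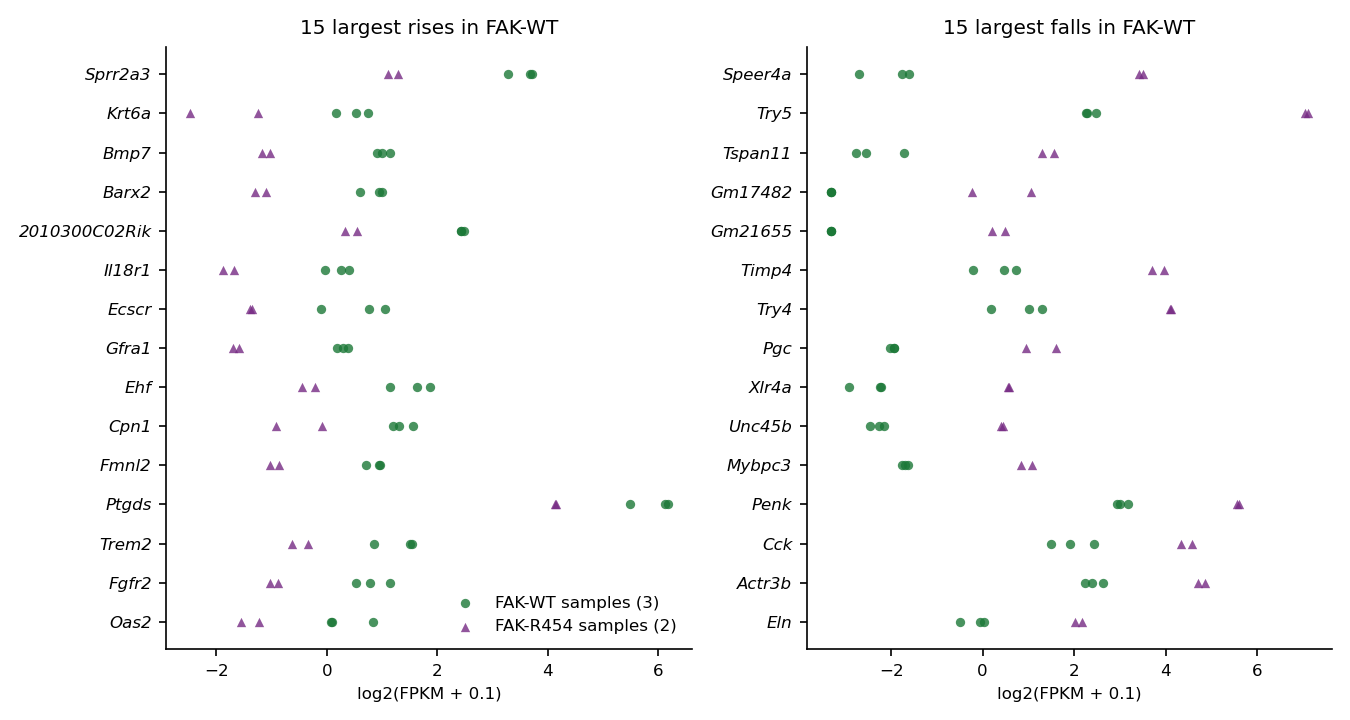
The x axis gives the level (log2 of FPKM plus 0.1) of the 15 genes with the largest rise in FAK-WT (left) and the 15 with the largest fall (right), with 1 green dot for each of 3 FAK-WT samples and 1 purple triangle for each of 2 FAK-R454 samples. Dots and triangles do not overlap for any of the 30 genes.

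Several keratins were higher in FAK-WT. Of 9 tested keratins, 8 had a log2 fold change above 0, where 39.4% of all tested genes did. Krt6a lies on chromosome 15, where the median of all tested genes was 0.15 and 88.3% lay above the other chromosomes' median. The part of this chromosome's shift in the keratin counts was not tested. Of the 9, 2 were called higher, 6 were higher at any fold and 1, Krt15, was lower. Over all tested genes these shares were 0.696%, 3.38% and 4.44%. Krt8 and Krt18, the paired keratins of simple epithelium, were abundant, with 601, 602 and 503 FPKM of Krt8 in FAK-WT against 379 and 361 FPKM in FAK-R454. The log2 fold change was 0.62 for Krt8 (SE 0.10, limma adjusted p = 0.0208) and 0.64 for Krt18 (SE 0.10, limma adjusted p = 0.0243). Krt14, a basal-layer keratin, had 42.5, 49.8 and 67.6 FPKM in FAK-WT and 22.8 and 24.7 FPKM in FAK-R454, a called rise of 1.14 on the log2 scale. Without FAK-WT 2 neither Krt6a nor Krt14 was called, without FAK-WT 1 Krt6a was not, and without FAK-WT 3 Krt14 was not. With no filter on low values Krt6a, Krt18 and Krt19 did not pass (limma adjusted p = 0.0521, 0.0503 and 0.0763), which of the 6 left Krt14, Krt8 and Krt80. Of 13 tested mesothelial and ovarian epithelial markers, 3 were called lower and none higher, where 0.747% and 0.696% of all tested genes were. At any fold 5 were lower (with Gata6 and Nr5a1) and 4 higher, where 4.44% and 3.38% of all tested genes were. The 4 were Msln and the keratins Krt8, Krt18 and Krt19, which this list shares with the keratins. Upk3b, a uroplakin of mesothelium, had 7.03, 9.40 and 5.96 FPKM in FAK-WT and 31.1 and 32.0 FPKM in FAK-R454 (log2 fold change -2.09, SE 0.18, limma adjusted p = 0.0041), and Bnc1 and Lrrn4 fell by 1.66 and 1.56 on the log2 scale from levels under 2 FPKM. Bnc1 and Lrrn4 were not called without FAK-WT 1, without FAK-WT 2 or with no filter on low values, which left 1 called member. Within the same list, Msln, the gene of mesothelin, rose by 0.38 (limma adjusted p = 0.0184) and the Wilms tumor factor Wt1 had a log2 fold change of -0.10 (limma adjusted p = 0.47).

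Wnt4, a secreted Wnt ligand, was among the best separated genes. It had 20.5, 21.3 and 21.9 FPKM in FAK-WT and 7.34 and 7.44 FPKM in FAK-R454, a log2 fold change of 1.51 (SE 0.05, limma adjusted p = 0.000407). Axin2, a negative-feedback target of β-catenin, had 2.02, 2.05 and 2.09 FPKM against 0.761 and 0.786 FPKM (log2 fold change 1.30, SE 0.12, limma adjusted p = 0.00584). Both groups of values were tight and far apart. Of 11 tested Wnt targets, 8 were above 0 in log2 fold change, where 39.4% of all tested genes were. At any fold 5 were higher (Axin2, Notum, Ccnd1, Myc and Cd44) and 1 was lower, where 3.38% and 4.44% of all tested genes were. The lower gene, Dkk1, a secreted Wnt inhibitor, had 0.304, 0.338 and 0.262 FPKM in FAK-WT and 1.22 and 1.04 FPKM in FAK-R454. Dkk1 was not called without FAK-WT 1 or FAK-WT 2. With no filter on low values Notum and Ccnd1 did not pass (limma adjusted p = 0.0685 and 0.0664), which left 3 of the 5, and with log2(FPKM + 1) the Axin2 rise was 0.78 and below the fold for a call. The median of the list was 0.37 (pooled SD of the list's median level between samples of a line 0.14, log2 scale). Among 25 tested Wnt ligands, receptors and inhibitors, Wnt4 was the only one higher and 3 were lower at any fold. Ctnnb1, which encodes β-catenin itself, had 127, 129 and 129.6 FPKM in FAK-WT and 139 and 133 FPKM in FAK-R454 (log2 fold change -0.08, limma adjusted p = 0.311).

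In the line with β-catenin ΔGSK, Wnt4 and Axin2 reached levels that were far above those of every other line. Axin2 was 109.6 ± 6.69 FPKM there and 0.822 ± 0.0146 FPKM in FAK KO (SD, n = 3 each), so the FAK-WT level of 2.05 ± 0.0355 FPKM (SD, n = 3) lay near the lower end of that range. The Axin2 level of parental KMF was 5.88 ± 0.301 FPKM (SD, n = 3). FAK-WT stood above FAK KO in Axin2 by 1.22 on the log2 scale, while the FAK-R454 mean of 0.773 ± 0.0176 FPKM (SD, n = 2) was close to the FAK KO level.

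Col6a1, Col6a2 and Col6a3 encode the chains of collagen VI, a microfibrillar matrix collagen. Col6a1 had 64.6, 69.5 and 68.8 FPKM in FAK-WT and 27.3 and 24.3 FPKM in FAK-R454 (log2 fold change 1.39, SE 0.07, limma adjusted p = 0.00128). Col6a2, its neighbour on chromosome 10, had 14.3, 14.1 and 11.9 FPKM against 7.40 and 6.27 FPKM (log2 fold change 0.96, limma adjusted p = 0.00976), and so rose without reaching the fold for a call. Col6a3, on another chromosome, had 7.92, 9.02 and 13.7 FPKM against 5.26 and 5.25 FPKM, and did not pass (log2 fold change 0.90, limma adjusted p = 0.0639). Of 19 tested collagens, Col6a1 was called higher and Col22a1 lower, where 0.696% and 0.747% of all tested genes were. The collagen median was -0.10 (0.03 with no filter on low values, pooled SD between samples 0.08). Col22a1 was not called without FAK-WT 1.

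Other matrix genes went both ways. Emilin2, an elastin microfibril glycoprotein, was called higher (13.4, 12.9 and 11.8 FPKM in FAK-WT against 6.17 and 5.77 FPKM in FAK-R454), and the lysyl oxidase Loxl4 rose by 0.98 on the log2 scale. Of 29 tested matrix proteases and inhibitors, Timp4 was called lower and none was called higher, where 0.747% and 0.696% of all tested genes were. At any fold 5 were lower and 2 higher, where 4.44% and 3.38% of all tested genes were. The 2 were Mmp24, by 0.77, and the urokinase receptor gene Plaur, by 0.39 on the log2 scale. Mmp11 had 30.4, 31.4 and 32.2 FPKM in FAK-WT and 51.4 and 54.9 FPKM in FAK-R454 (log2 fold change -0.76, SE 0.05, limma adjusted p = 0.00318). The membrane-bound metalloproteinases Mmp14 and Mmp15 fell by 0.51 and 0.55, again with no overlap between samples of the 2 lines.

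Of 29 tested genes of FAK signalling, 5 (Ptk2 itself among them) were lower and 1 higher at any fold, where 4.44% and 3.38% of all tested genes were. None of them and none of 12 tested integrins was called, where 1.44% of all tested genes were. Ptk2b, which encodes the related kinase PYK2, had 9.04, 8.74 and 7.17 FPKM in FAK-WT and 12.4 and 12.1 FPKM in FAK-R454 (log2 fold change -0.56, SE 0.11, limma adjusted p = 0.0349). The Src-family kinase Fyn (-0.56), the scaffold Nedd9 (-0.51) and the GTPase-activating protein Arhgap26 (-0.63) were lower as well, and Asap1, an Arf GTPase-activating protein, was higher by 0.23. With chromosome medians set to 0, Ptk2b, Nedd9, Arhgap26 and Asap1 had log2 fold changes of -0.45, -0.42, -0.41 and 0.08 and did not pass. Among 12 tested integrins, Itga10, Itgb4 and Itgb3 rose and Itga7 fell. The collagen-binding subunit Itga10 had 9.82, 9.34 and 9.50 FPKM in FAK-WT and 5.18 and 5.52 FPKM in FAK-R454 (log2 fold change 0.83), and the laminin-binding subunit Itga7 had 3.19, 3.67 and 3.88 FPKM against 5.67 and 6.49 FPKM (log2 fold change -0.75). The median of 27 tested focal adhesion and contractile genes was -0.10 (pooled SD between samples 0.07), with 3 lower and none higher.

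**Figure D3:**
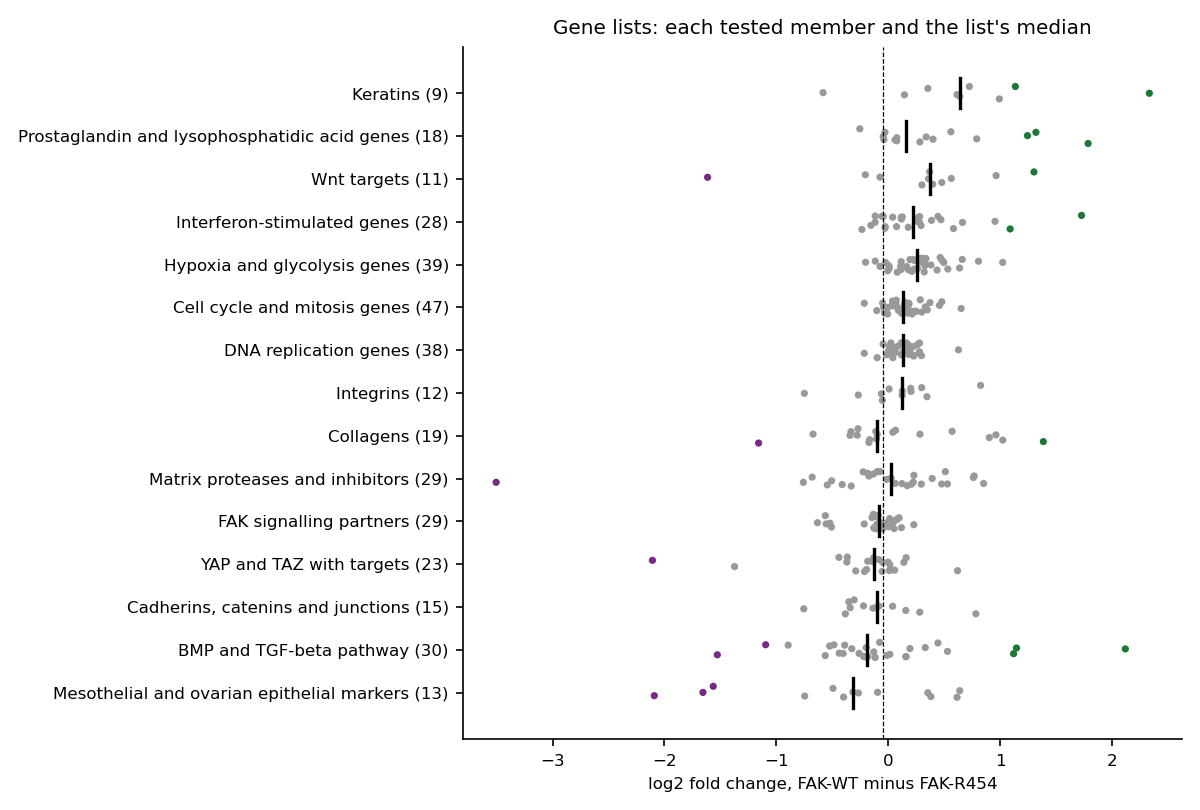
Each dot is a tested member of the named list (the number in parentheses gives the members tested), placed by its log2 fold change of FAK-WT over FAK-R454 on the x axis, in green if called higher and purple if called lower. The black bar is the list's median and the dashed line the median of all tested genes, -0.05. The keratin median of 0.64 lies on the right and that of mesothelial markers, -0.32, on the left, and with no filter on low values, which adds members below it, these medians were 0.35 and -0.16.

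Growth factor and morphogen genes were called in both directions. Of 30 tested genes of the BMP and TGF-β pathway, Bmp7, the type III receptor Tgfbr3 and the activin antagonist Fst were called higher. The ligand Gdf6 and the receptor Acvrl1 were called lower, and the list median was -0.19 (pooled SD between samples 0.19). Of all tested genes, 0.696% were called higher and 0.747% lower. Tgfbr3 had 9.73, 10.3 and 11.6 FPKM in FAK-WT and 4.61 and 4.79 FPKM in FAK-R454. Gdf6 had 4.34, 4.62 and 6.27 FPKM against 14.6 FPKM in both FAK-R454 samples. The samples of the 2 lines did not overlap in either gene. Jag2, a Notch ligand, rose by 1.45 on the log2 scale (6.78, 7.40 and 9.27 FPKM against 2.59 and 2.97 FPKM), and was the only called gene of 10 tested in the Notch pathway. Of the FGF, VEGF and PDGF genes, the receptors Fgfr2 and Flt1 were called higher and the ligand Fgf18 lower, and Flt1 was no longer called without FAK-WT 3, nor Fgfr2 and Flt1 without FAK-WT 2. Of the BMP genes, Fst was not called without FAK-WT 2 and Acvrl1 not without FAK-WT 1 or FAK-WT 2.

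The neurotrophin receptor Ngfr had 9.22, 9.42 and 6.87 FPKM in FAK-WT and 4.11 and 2.42 FPKM in FAK-R454, a called rise of 1.39 on the log2 scale that was not called without FAK-WT 1 or FAK-WT 2. Erbb2, an EGF receptor family kinase, fell by 0.61 and its family's ligand Areg rose by 0.62, both without reaching the fold for a call. These 2 genes were named after their values were seen.

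Of 18 tested genes of prostaglandin and lysophosphatidic acid metabolism, 3 were called higher, 6 were higher at any fold and none was lower. Over all tested genes these shares were 0.696%, 3.38% and 4.44%. Ptgds, a prostaglandin D2 synthase, had 72.1, 69.7 and 45.0 FPKM in FAK-WT and 17.7 and 17.4 FPKM in FAK-R454 (log2 fold change 1.79, SE 0.20, limma adjusted p = 0.00935). Enpp2, which encodes autotaxin, the enzyme that makes lysophosphatidic acid, had 92.3, 86.8 and 52.3 FPKM against 29.6 and 30.2 FPKM (log2 fold change 1.32, SE 0.24, limma adjusted p = 0.0309). FAK-WT 3 was the lowest FAK-WT sample for both and still lay above both FAK-R454 samples. The prostaglandin E2 receptor Ptger3 had 1.49, 1.72 and 1.87 FPKM against 0.532 and 0.798 FPKM and was also called. Without FAK-WT 1, without FAK-WT 2 or with no filter on low values, neither Enpp2 nor Ptger3 was called, which left Ptgds. Among the others, the cyclooxygenase Ptgs2 rose by 0.40.

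Among 27 tested output and feedback genes of the ERK pathway, Fos was called higher, Ier3 and Fosl1 were higher at any fold, and Spry2, a feedback inhibitor, was lower. Of all tested genes, 0.696% were called higher and 0.747% lower, and at any fold 3.38% were higher and 4.44% lower. Fos, a subunit of the AP-1 transcription factor, had 4.02, 3.89 and 4.46 FPKM in FAK-WT and 1.73 and 1.87 FPKM in FAK-R454 (log2 fold change 1.15, SE 0.10, limma adjusted p = 0.00452). Ier3 was abundant, with 350.2, 348 and 328 FPKM against 217 and 206 FPKM, and Fosl1, another AP-1 subunit, had 26.8, 26.9 and 32.4 FPKM against 17.8 and 19.1 FPKM. The 3 genes were higher in every FAK-WT sample. Of 23 tested genes of YAP and TAZ signalling, the cofactor Vgll3 was called lower (0.464, 0.606 and 0.508 FPKM against 2.64 and 2.53 FPKM), 4 were lower and 1, Tead4, was higher at any fold.

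Promoter sequence was read for the called genes, to show which carried TGANTCA, used here as a loose form of the AP-1 site. Its N is any base, so forms such as TGAATCA, marked in Trem2 below, were counted along with TGACTCA. RefSeq promoters (GRCm38.p6, the 250 bases before a start site) matched by symbol and chromosome 56 of the 82 genes called higher and 59 of the 88 called lower. The AP-1 letters TGANTCA on either strand stood in 14.1% of 71 promoters of genes called higher, in 8.70% of 69 promoters of genes called lower and in 4.56% of 10948 promoters of all tested genes. The counts behind these shares were 10 promoters of 8 genes and 6 promoters of 5 genes. The TEAD letters GGAATG stood in 14.1%, 18.8% and 10.6% of the same 3 sets, the TCF/LEF letters CTTTGNT in 18.3%, 20.3% and 11.7%, and the E-box CACGTG in 9.86%, 2.90% and 8.38%. These are descriptions of letters and say nothing of binding. Promoters of 3 named called genes that hold the AP-1 letters follow, 5′ to 3′ on the gene's strand with those letters in capitals, from chr10:76726045-76726294 (minus strand, Col6a1), chr2:25469750-25469999 (minus strand, Ptgds) and chr17:48346151-48346400 (plus strand, Trem2).
Col6a1: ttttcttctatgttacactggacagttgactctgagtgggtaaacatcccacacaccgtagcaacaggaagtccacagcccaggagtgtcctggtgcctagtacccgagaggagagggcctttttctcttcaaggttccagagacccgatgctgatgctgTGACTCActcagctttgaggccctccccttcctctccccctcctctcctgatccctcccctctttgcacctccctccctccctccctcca
Ptgds: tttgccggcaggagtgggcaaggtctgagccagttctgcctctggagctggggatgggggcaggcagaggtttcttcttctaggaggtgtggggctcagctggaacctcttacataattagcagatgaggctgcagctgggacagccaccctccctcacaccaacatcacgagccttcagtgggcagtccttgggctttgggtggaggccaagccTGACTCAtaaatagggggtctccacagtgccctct
Trem2: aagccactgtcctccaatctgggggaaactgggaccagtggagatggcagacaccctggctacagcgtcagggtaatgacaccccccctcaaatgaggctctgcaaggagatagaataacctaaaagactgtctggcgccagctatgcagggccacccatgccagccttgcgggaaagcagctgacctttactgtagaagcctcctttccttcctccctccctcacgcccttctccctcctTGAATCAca

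Of the genes that the study follows as FAK readouts, several passed at lower folds. Myc had 49.2, 51.6 and 46.7 FPKM in FAK-WT and 37.8 and 38.2 FPKM in FAK-R454 (log2 fold change 0.37, SE 0.06, limma adjusted p = 0.0201). Klf5, a Krüppel-like factor, had 2.03, 2.58 and 2.94 FPKM against 1.19 and 1.41 FPKM (log2 fold change 0.89, limma adjusted p = 0.0413). Cdh2, which encodes N-cadherin, had 14.2, 14.2 and 14.9 FPKM in FAK-WT and 24.6 and 24.3 FPKM in FAK-R454 (log2 fold change -0.75, SE 0.05, limma adjusted p = 0.00288). Thus Myc and Klf5 were higher and Cdh2 lower in every FAK-WT sample. Myc lies on chromosome 15, where the median of all tested genes was itself 0.15, and with chromosome medians set to 0 its log2 fold change was 0.22 and did not pass (limma adjusted p = 0.059). Amigo2, an adhesion molecule, and Rnf144b, a ubiquitin ligase, were called higher, by 1.14 and 1.16 on the log2 scale. Rnf144b was not called without FAK-WT 1 or FAK-WT 2, nor with log2(FPKM + 1), where its fold change was 0.57. The glypican Gpc4 (log2 fold change -0.04, limma adjusted p = 0.769) and Nectin2, listed under its older symbol Pvrl2 (0.01, limma adjusted p = 0.966), had overlapping samples. Recql4 (0.42), Spc24 (0.29), Pkmyt1 (0.46) and Dscc1 (0.63), which act in replication and mitosis, did not pass.

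Most genes of proliferation had small positive log2 fold changes that did not pass the test. Of 47 tested cell cycle and mitosis genes 38 had a log2 fold change above 0, and of 38 DNA replication genes 34, where 39.4% of all tested genes did. Both medians were 0.13. The pooled SD of the list's median level between samples of a line was 0.27 for the cell cycle genes and 0.12 for the replication genes. This SD is of levels and does not measure the spread of a median of differences. None of the replication genes passed at any fold and 3 cell cycle genes did, the cyclin Ccnd1, the kinase Cdk6 and Cdkn1a, which encodes the cell cycle inhibitor p21. Cdkn1a had 121, 128 and 118 FPKM in FAK-WT and 78.5 and 77.2 FPKM in FAK-R454 (log2 fold change 0.65, SE 0.05, limma adjusted p = 0.00357), so the gene of the list that differed most was an inhibitor.

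None of 39 tested hypoxia and glycolysis genes passed the test, where 3.38% of all tested genes were higher and 4.44% lower at any fold. Of the 39, 34 had a log2 fold change above 0, where 39.4% of all tested genes did. The median was 0.26, and the pooled SD of the list's median level between samples of a line was 0.44. Vegfa, chosen after its values were seen, had 61.1, 74.8 and 157 FPKM in FAK-WT and 49.4 and 52.9 FPKM in FAK-R454 (log2 fold change 0.81, limma adjusted p = 0.232). Ndufa4l2, a hypoxia-induced mitochondrial protein gene, had 49.0, 68.1 and 181 FPKM against 39.9 and 43.2 FPKM (log2 fold change 1.02, limma adjusted p = 0.261). FAK-WT 3, the library that correlated least with the others, was highest for these 2 genes.

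The position of FAK-WT and FAK-R454 among the 5 lines differed from gene to gene, and each line's values are given side by side because the comparisons with FAK KO share its samples. For the water channel Aqp5, called higher in FAK-WT and chosen after its values were seen, FAK-R454 (92.4 ± 8.99 FPKM, SD, n = 2) was near FAK KO (77.9 ± 5.64 FPKM, SD, n = 3) and FAK-WT (202 ± 20.7 FPKM, SD, n = 3) near KMF (214 ± 8.20 FPKM, SD, n = 3), with 161 ± 7.44 FPKM in β-catenin ΔGSK (SD, n = 3). For Col6a1, both re-expressing lines were above FAK KO (5.88 ± 0.663 FPKM, SD, n = 3), KMF (17.2 ± 0.795 FPKM, SD, n = 3) and β-catenin ΔGSK (5.69 ± 0.633 FPKM, SD, n = 3). For Ptgds both were again above the rest, with 62.2 ± 15.01 FPKM in FAK-WT (SD, n = 3), 17.6 ± 0.234 FPKM in FAK-R454 (SD, n = 2), 5.54 ± 0.752 FPKM in KMF, 0.125 ± 0.0479 FPKM in β-catenin ΔGSK and 2.79 ± 0.4995 FPKM in the FAK KO clone (SD, n = 3 each).

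In another set of genes it was FAK-R454 that stood apart from the other 4 lines. Penk was 47.7 ± 1.36 FPKM in FAK-R454 (SD, n = 2), 8.15 ± 0.723 FPKM in FAK-WT, 9.12 ± 0.917 FPKM in FAK KO and 3.74 ± 0.293 FPKM in KMF (SD, n = 3 each), and it was at 0, 0 and 0.0243 FPKM in β-catenin ΔGSK. Upk3b was 31.6 ± 0.649 FPKM in FAK-R454 (SD, n = 2), against means of 4.03 to 8.74 FPKM in the other lines, and Timp4 was 14.3 ± 1.82 FPKM (SD, n = 2) against 0.420 to 2.78 FPKM. No sample of these other lines reached a FAK-R454 value of Penk, Upk3b or Timp4. For Try5 the FAK KO clone was highest at 482 ± 49.8 FPKM (SD, n = 3), FAK-R454 was 135 ± 4.09 FPKM (SD, n = 2), FAK-WT 4.94 ± 0.438 FPKM and KMF 1.02 ± 0.294 FPKM (SD, n = 3 each), and it was listed at 0 in all β-catenin ΔGSK samples.

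**Figure D4:**
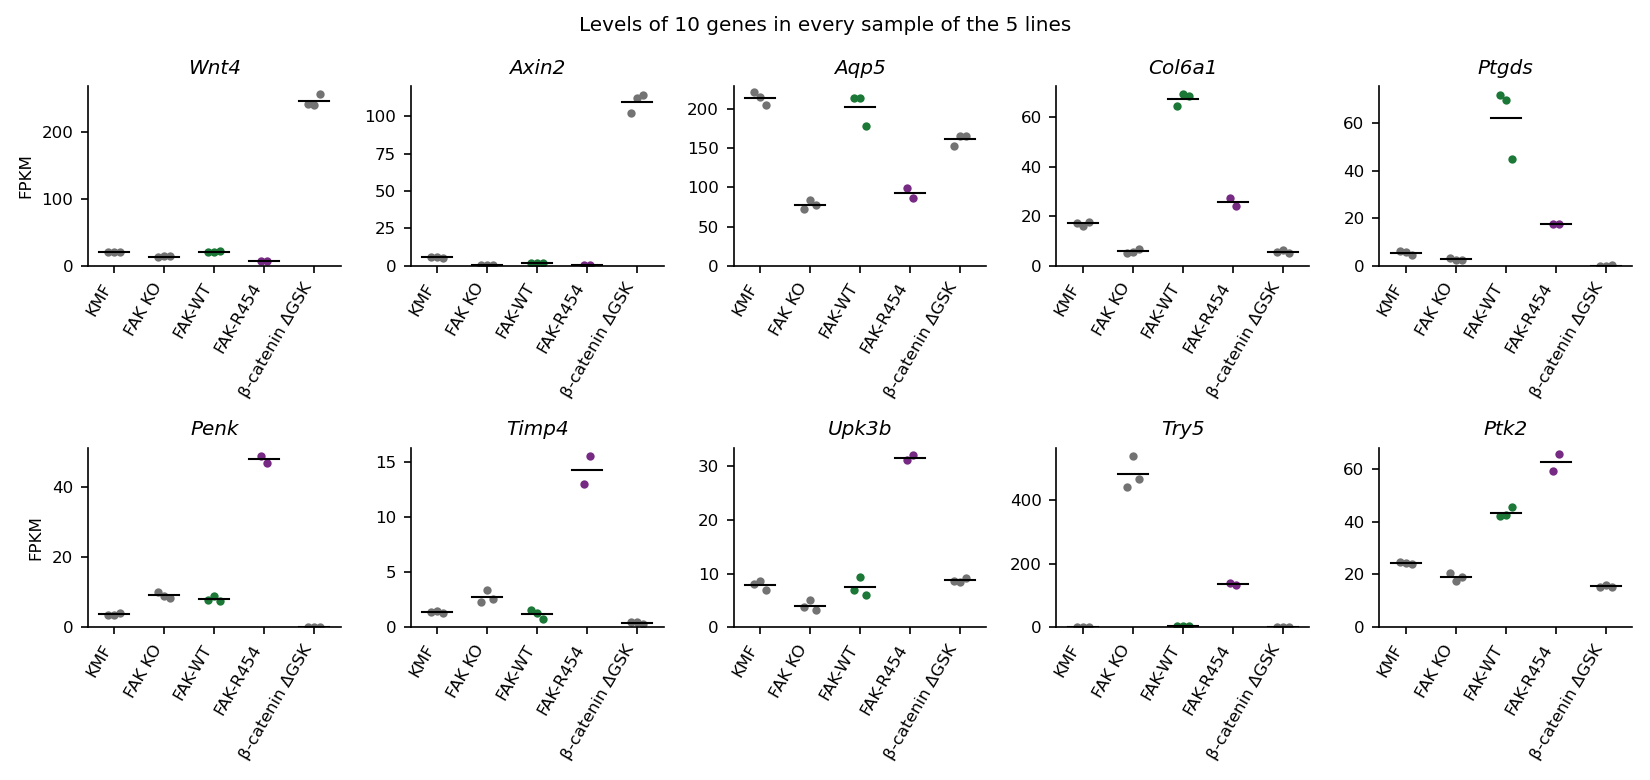
The y axis of each panel gives FPKM, from 0, of 1 of 10 genes in the 14 samples of the 5 lines, with 1 dot per sample and a bar at the line's mean. FAK-WT is green, FAK-R454 purple and the other lines grey. FAK-R454 is the highest line for Penk, Timp4 and Upk3b, and FAK-WT for Col6a1 and Ptgds.

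A pair of comparisons shared no sample with FAK-WT or FAK-R454. Between KMF and FAK KO, where 3.97% of tested genes were called higher and 4.04% lower, 27 of the 82 genes higher in FAK-WT were called higher (32.9%) and 11 lower (13.4%), and 62 of them were tested. Of the 88 genes lower in FAK-WT, 68 were tested, 37 were called lower in KMF (42.0%) and 4 higher. Between β-catenin ΔGSK and FAK KO, where 5.13% were called higher and 6.99% lower, 33 of the 82 were called higher (40.2%) and 10 lower, and of the 88, 45 were called lower (51.1%) and 19 higher (21.6%). The shares in the direction seen between FAK-WT and FAK-R454 lay above those of all tested genes in both comparisons, and so did the shares in the opposite direction, the smallest of which was the 4 genes in KMF (4.55%). Both comparisons use the same FAK KO samples, and the counts were not tested.

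Counts of called genes and median changes differed between chromosomes. On chromosome 15, which carries Ptk2, the median log2 fold change of 480 tested genes was 0.20 above that of the other chromosomes, 88.3% of them lay above the other chromosomes' median, and 11 were called higher and 3 lower. The shift was 0.22, 0.22 and 0.18 in the 3 FAK-WT samples against the FAK-R454 mean. On chromosome 6, with 577 tested genes, 9 were called lower and 0 higher. They include Try4 with Try5 and Timp4 with Gm17482, pairs whose reads are not surely assigned. Of all tested genes 0.696% were called higher and 0.747% lower. Chromosome 17 was shifted by 0.15 and chromosome 19 by 0.12, chromosome 18 by -0.18 and chromosome 6 by -0.10. Each of these shifts was seen in all 3 FAK-WT samples against the FAK-R454 mean, and with the opposite sign in both FAK-R454 samples against the FAK-WT mean. After each chromosome's median was set to 0, 154 genes were called, 142 of them among the 170, and Amigo2, Slurp1, Aqp5 and Cela1 on chromosome 15 missed the fold threshold with log2 fold changes of 0.99, 0.99, 0.98 and 0.92 (the last 3 genes were chosen after their values were seen). The part of the chromosome shifts in the calls was not tested.

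**Figure D5:**
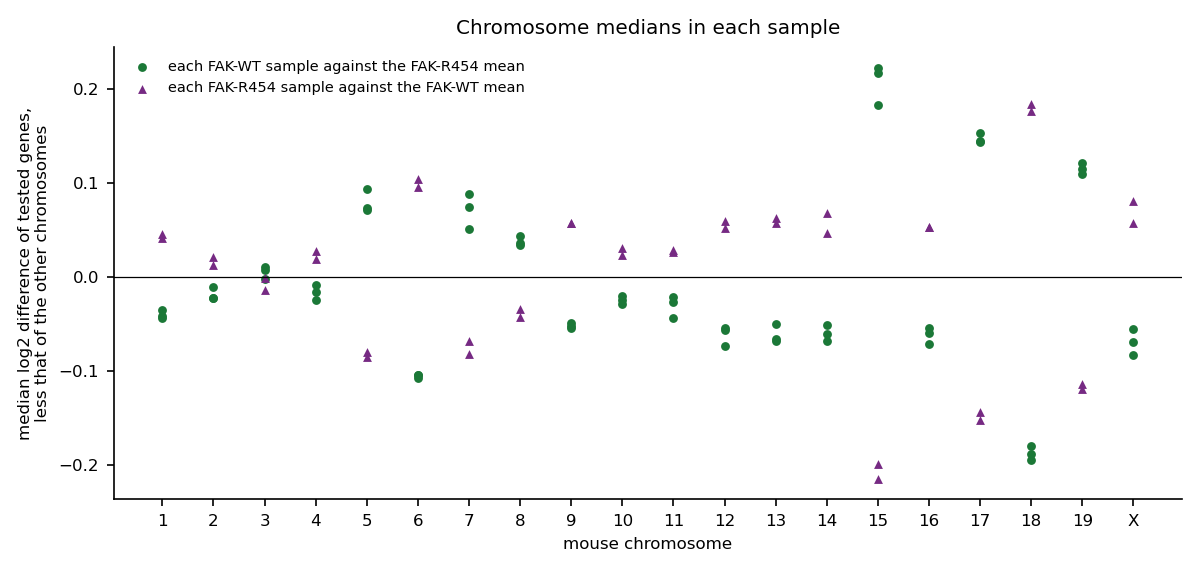
The y axis gives the median log2 difference of the tested genes on each mouse chromosome (x axis), less that of the other chromosomes, for each FAK-WT sample against the FAK-R454 mean (green dots) and each FAK-R454 sample against the FAK-WT mean (purple triangles). Samples of a line lie close together, from 0.18 to 0.22 for FAK-WT on chromosome 15.

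Some called genes were neighbours, and those named here for their position, Sprr1a, Smagp and Cela1 among them, were chosen after their values were seen. Of consecutive called genes on a chromosome, 27 pairs lay within 500 kb (coordinates as deposited, mm10). Of these, 18 changed in the same direction, 5 both higher and 13 both lower, and 9 in opposite directions, as with Cela1 and Acvrl1. The number that would agree without any tie to position was not computed. All pairs named next changed in the same direction. Try4 (chr6:41302269-41305532) and Try5 (chr6:41311233-41316841) were 5700 bases apart. Actr3b, Gm21655 and Speer4a followed each other on chromosome 5 between 25759997 and 26039506, and all 3 were lower in FAK-WT. The small proline-rich genes Sprr2a3 and Sprr1a, 194700 bases apart on chromosome 3, were both higher, and Sprr1a was not called without FAK-WT 2. Smagp and Cela1 on chromosome 15 were 37559 bases apart and both higher, with 19.2, 19.2 and 17.6 FPKM of Smagp, a small transmembrane glycoprotein gene, in FAK-WT and 5.66 and 5.88 FPKM in FAK-R454.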

How the data were processed

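RNA of 5-day tumorspheres was sequenced as paired-end poly(A) libraries. The submitters' processing notes name CASAVA 1.8, STAR 2.5, DESeq2 and mm10, while the study's methods name TopHat2, so the aligner is uncertain. The authors deposited FPKM for 35275 genes, and whether counting used strand is not given in the sources used here. FPKM times gene length gave whole fragments for 100% of values (within 0.01), which gives each library's depth. FPKM was compared as log2(FPKM + 0.1), which understates changes of low genes, with limma 3.58.1 (lmFit, eBayes with trend, R 4.3.3) on the samples of both lines and genes with a mean above 1 FPKM in either line. P-values were Benjamini-Hochberg adjusted over all tested genes. The script was tested on simulated data. The methods describe 3 FAK-R454 samples, of which 2 were analysed here.

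The members and gene lists were chosen with earlier results of these data known. Genes named are the 15 largest called rises and falls, called members of each list (or abundant members), genes the study follows, and members that passed at a lower fold or are stated as chosen later, both named after their values were seen. Alternatives were other pseudocounts, filters, scalings, fold thresholds, limma-voom on recovered fragments, a replicate block, chromosome centring and leaving out each sample. Not every listed marker is reported here.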

Additional observations from a re-analysis of the deposited data

How the results depend on the processing

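The main limit is 2 FAK-R454 samples. Against 82 higher and 88 lower calls, log2(FPKM + 1) gave 26 and 50, a mean above 5 FPKM gave 26 and 39 (104 of the 170 genes were then not tested), a log2 fold threshold of 0.5 gave 221 and 222, and no fold threshold gave 398 and 523. Leaving out 1 sample at a time gave 4 to 109 higher and 3 to 111 lower calls, the lowest without either FAK-R454 sample. With log2(FPKM + 1), 34.2% of calls were higher in FAK-WT and with median-of-ratios scaling 54.3%, against 48.2%. Of the 170 calls 165 were also made by limma-voom on the recovered fragments (195 calls) and 73 by log2(FPKM + 1), and all 170 kept their sign in both. KMF against FAK KO gave 953 calls, and 566, 2777 and 6161 with log2(FPKM + 1), a threshold of 0.5 and no fold threshold. β-catenin ΔGSK against FAK KO gave 1444, and 955, 3872 and 6928. Leaving out 1 sample at a time gave 926 to 992 and 1392 to 1527.

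The replicate numbers give 2 pairs whose deviations from their line's mean correlated at 0.03 and -0.02. The deviations of 2 FAK-R454 samples mirror each other, and FAK-WT 1 with FAK-R454 2 gave -0.03. So these values cannot show whether samples of the same number shared more than the number. With the number as a block, 110 higher and 112 lower genes were called, and 157 of the 170 calls were also made. Only FAK-WT has a number 3, so the block takes FAK-WT 3 out of the contrast. It is thus nearly the same alternative as leaving out FAK-WT 3, which gave 109 higher and 111 lower calls. Values near 0 changed sign: Gpc4 was 0.0366 with the block, 0.0854 with chromosomes centred and -0.0975 to 0.0366 over the fits that leave out 1 sample. Ctnnb1 was 0.0351 and Pvrl2 -0.0202 with chromosomes centred, and Pvrl2 was -0.0502 to 0.104 over the fits that leave out 1 sample. Over all alternatives for named genes, 1840 of 2376 values kept their direction and their side of an adjusted p of 0.05. Of the rest, 508 kept their direction and lost that p, 21 gained it and 7 changed sign. The fold needed for a call was not part of these counts. With log2(FPKM + 1), Amigo2, Fos, Axin2 and Rnf144b counted as unchanged although their calls were lost. Of 660 list medians 603 moved by no more than the pooled SD of the list's median level between samples. The cause of these changes was not tested, apart from the fewer samples or genes that an alternative uses.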

Other observations

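Of 28 tested interferon-stimulated genes 20 had a log2 fold change above 0, where 39.4% of all tested genes did. Oas2 and Cmpk2 were called higher, Oasl1 and Gbp2 were higher at any fold, and none was lower. Over all tested genes 0.696% were called higher, and at any fold 3.38% were higher and 4.44% lower. Oas2 was not called without FAK-WT 1 and Cmpk2 not without FAK-WT 2. Cmpk2, a mitochondrial nucleotide kinase, had 2.68, 2.94 and 3.32 FPKM in FAK-WT and 1.18 and 1.52 FPKM in FAK-R454. Il33, an alarmin cytokine, had 10.8, 10.6 and 13.1 FPKM against 4.87 and 5.31 FPKM (log2 fold change 1.15, limma adjusted p = 0.00584). The chemokine Cxcl12 had 4.89, 5.204 and 7.94 FPKM against 15.7 and 15.5 FPKM (log2 fold change -1.40, limma adjusted p = 0.0185) and was the only 1 of 18 tested chemokines and cytokines that was lower, and it was not called without FAK-WT 2.

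Of 32 tested genes of cholesterol and fatty acid synthesis none was called, 2 were higher at any fold, none was lower and 16 were above 0, with a median of 0.0014. The 2 were the stearoyl-CoA desaturases Scd1 and Scd2. Scd1 had 50.4, 52.1 and 55.4 FPKM in FAK-WT and 27.1 and 26.5 FPKM in FAK-R454 (log2 fold change 0.97, limma adjusted p = 0.00195). Of 17 tested aldehyde dehydrogenases none was called, 3 were higher and 2 lower at any fold, and of these 5 only Aldh1a7 passed with no filter on low values. Over all tested genes 1.44% were called, and at any fold 3.38% were higher and 4.44% lower. Aldh1a7 had 28.3, 28.3 and 27.3 FPKM against 15.3 and 16.7 FPKM (log2 fold change 0.80, limma adjusted p = 0.00318). Aldh1a2 had 0.859, 0.938 and 1.21 FPKM against 0.541 and 0.223 FPKM and did not pass (log2 fold change 1.26, limma adjusted p = 0.0812). The drug transporter Abcg2 had 5.56, 5.12 and 4.58 FPKM against 8.37 and 8.05 FPKM (log2 fold change -0.68, limma adjusted p = 0.0165), and 48 tested subunits of oxidative phosphorylation had a median of -0.04 with 1 lower (pooled SD between samples 0.07, median 0.03 with chromosomes centred, with the replicate block or without FAK-WT 3).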
